A study of Mus musculus with 17 samples.

Results

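Bone matrix and osteoclast-regulating genes were followed across cell lines derived from MMTV-PyMT mouse tumors. The set holds 10 genes of the 55450 in the bulk table: Mgp, Spp1, Ibsp, Alpl, Cnmd, Tnfrsf11b, Tnfsf11, Pthlh, Runx2 and Sp7. They were chosen by name with values of these same libraries already known, so their levels and differences are given as a description, with no p-value, and the counts of members past the thresholds further on are part of that description. Of the 10 genes, 8 passed the filter on low values used for the fits, a minimum of 1 TPM (transcripts per 1e6, a length-scaled level) in at least 2 libraries. Ibsp and Sp7 did not.

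Bulk RNA-seq covered 14 libraries in 7 groups of 2. One group came from primary tumors of the mammary fat pad (MFP). The other groups were CD44low and CD44high cells grown out of bone marrow (BM), lung and lymph node (LN). Tumor-bearing organs came from 10 female mice of the FVB/NJ MMTV-PyMT strain, aged 10 to 12 weeks according to the methods, in which a mammary tumor virus promoter drives the polyoma middle T antigen in mammary epithelium. All groups were grown for about a month under conditions meant to favor cancer cells over fibroblasts, and were then sorted for EpCAM and for low or high CD44. The labels give no CD44 status for MFP. The 2 libraries of a group were separate clonal isolates from different mice, so each group rests on a pair of clones. Single-cell RNA-seq covered lung CD44high (lungH), lung CD44low (lungL) and LN CD44high (lymphH) lines, with 1 library each.

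Bone and cartilage matrix is laid down by osteoblasts and chondrocytes and removed by osteoclasts. Runx2 and Sp7 are the transcription factors that commit cells to the osteoblast lineage. Alpl, the tissue-nonspecific alkaline phosphatase, splits pyrophosphate, an inhibitor of mineral, while Mgp, matrix Gla protein, keeps soft tissue free of mineral once vitamin K-dependent carboxylation has activated it. Spp1 (osteopontin) and Ibsp (bone sialoprotein) are acidic phosphoproteins that bind mineral and integrins, and Cnmd (chondromodulin) is a cartilage glycoprotein that inhibits blood vessel growth. Osteoclasts form when Tnfsf11 (RANKL) engages its receptor RANK. Tnfrsf11b (osteoprotegerin) is a secreted decoy for RANKL, and Pthlh (parathyroid hormone-related protein) raises RANKL in osteoblasts. In breast cancer, this loop is best known from bone metastasis.

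The epithelial sort was checked first, because several results below turn on the lung lines. Epcam itself stood at 315.09 to 941.14 TPM in the 10 MFP, LN and BM libraries. In lung CD44low it was listed at 0 in both libraries, and in lung CD44high at 0.23 and 0.86 TPM. The lung libraries therefore went against the EpCAM-high description of the sort. Cd44 transcript was not higher in CD44high than in CD44low cells of any organ. In lung it was at 21.95 and 12.07 TPM in CD44high and 12.22 and 21.62 TPM in CD44low, and in BM at 50.49 and 49.00 TPM against 43.77 and 74.90 TPM. In LN it ran against the labels without overlap, at 49.04 and 52.26 TPM in CD44high and 146.70 and 82.72 TPM in CD44low (-1.11 ± 0.44, limma adjusted p = 0.423). The sort used surface protein, whereas these values are transcript. The paper also reports that CD44 expression had changed between its first isolates and the cells later profiled. The labels are kept for all CD44 comparisons. In lung CD44low, 8 of 8 fibroblast markers had at least 1 TPM in both libraries and their sum was 4708 and 5117 TPM, against 85.7 and 195 TPM in lung CD44high and at most 19.9 TPM elsewhere. The sum of 4 smooth muscle markers was 755 and 821 TPM in lung CD44low and at most 7.04 TPM in the other 12 libraries. Summed epithelial markers were 1.42 and 2.17 TPM in lung CD44low, 15.6 and 87.5 TPM in lung CD44high, and at least 1401 TPM elsewhere. The part of these markers in the differences between lung and the other lines was not tested. Markers of endothelium summed to at most 0.21 TPM in any library, and those of osteoblasts and osteocytes to at most 10.33 TPM. The 6 macrophage and leukocyte markers summed to 39.29 and 39.09 TPM in lung CD44low, where Lyz2 held 35.21 and 34.75 TPM, and to between 2.54 and 23.89 TPM elsewhere, with Cd68 at 10.44 and 22.45 TPM in MFP. Adgre1 of that list was at 0 in all 14 libraries and Ptprc at 0.2 TPM or less. The 8 osteoclast markers summed to 18.55 and 14.86 TPM in lung CD44low, mostly Ctsk at 16.15 and 10.45 TPM, to 13.87 and 0.37 TPM in MFP, mostly Mmp9, and to at most 7.26 TPM elsewhere. In bulk RNA, fewer cells of a type and less RNA per cell cannot be told apart.

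Regulatory sequence of 4 members is shown because they form contrasting pairs. Spp1 and Ibsp lie in a cluster of 5 related mineral-binding genes on mouse chromosome 5 (mm10), with Spp1 abundant and Ibsp listed at 0 in the same libraries. Tnfsf11 and Cnmd lie 1330 kb apart on chromosome 14, on the same strand, and never appeared in the same library. Each sequence is the 250 bases before a RefSeq start in GRCm38.p6, read 5′ to 3′ on the gene's strand. Capitals mark TATAAA or the core letters bound by RUNX factors, TGTGGT, on either strand.
Spp1, chr5:104434861-104435110, plus strand: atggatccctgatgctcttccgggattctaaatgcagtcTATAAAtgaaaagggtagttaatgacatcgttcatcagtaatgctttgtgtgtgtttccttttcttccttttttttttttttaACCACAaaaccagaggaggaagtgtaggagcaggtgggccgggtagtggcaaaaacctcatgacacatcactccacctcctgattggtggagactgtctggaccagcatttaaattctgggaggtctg
Ibsp, chr5:104299037-104299286, plus strand: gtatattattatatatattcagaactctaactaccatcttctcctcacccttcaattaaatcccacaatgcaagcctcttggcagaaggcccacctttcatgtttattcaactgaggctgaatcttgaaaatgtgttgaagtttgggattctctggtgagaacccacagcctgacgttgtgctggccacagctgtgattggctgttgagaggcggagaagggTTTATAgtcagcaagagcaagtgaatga
Tnfsf11, chr14:78308044-78308293, minus strand: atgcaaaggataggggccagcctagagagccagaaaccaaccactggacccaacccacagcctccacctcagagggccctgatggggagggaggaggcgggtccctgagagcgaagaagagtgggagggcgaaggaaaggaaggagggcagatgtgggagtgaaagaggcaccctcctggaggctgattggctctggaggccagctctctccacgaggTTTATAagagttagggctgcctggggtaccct
Cnmd, chr14:79662184-79662433, minus strand: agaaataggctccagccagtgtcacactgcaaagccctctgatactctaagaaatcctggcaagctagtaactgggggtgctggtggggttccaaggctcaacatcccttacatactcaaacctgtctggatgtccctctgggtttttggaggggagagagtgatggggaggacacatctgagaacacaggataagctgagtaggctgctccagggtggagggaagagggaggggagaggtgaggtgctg
The RUNX core was found 128 bases before the Spp1 start shown and in none of the other 3 windows. The window before a second Spp1 start in the table, chr5:104435942-104436191, held neither motif. It was present in 14.05% of the 32851 promoter windows of the same length. TATAAA or its reverse complement lay 28 bases before the Ibsp start, 32 before that of Tnfsf11 and 211 before that of Spp1, and occurred in 12.4% of all windows. The Cnmd window held neither motif, and also no CpG dinucleotide, whereas 92.1% of all windows held at least 1. No window of the 4 held the AP-1 letters TGANTCA, which occurred in 6.75% of all. A match describes letters and not binding. Of the 10 members, 7 were in the promoter table, with 9 starts.

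Mgp ranged from 0 TPM in an MFP library to 8436 TPM in lung CD44low. In MFP it was measured at 0.98 and 0 TPM. Lung CD44low held 8436 and 8004 TPM, and lung CD44high 63.76 and 15.13 TPM. Both lung CD44low libraries were therefore above every other library, while the lung CD44high pair overlapped with LN CD44low, at 3.58 and 25.40 TPM. BM CD44high had 3319 and 798 TPM, and BM CD44low 432 and 342 TPM. LN CD44high reached 628 and 222 TPM. The order of group means was lung CD44low, BM CD44high, LN CD44high, BM CD44low, lung CD44high, LN CD44low and MFP, and the LN CD44high and BM CD44low libraries overlapped. The CD44 difference pointed up in both LN and BM and down in lung. On the log2(TPM + 1) scale, CD44high exceeded CD44low by 5.09 ± 0.97 (SE, n = 2 per group) in LN and by 2.08 ± 0.97 in BM, and the lung value was -7.99 ± 0.97. The BM value ran from 1.05 without the first BM CD44high library to 3.11 without the second.

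**Figure D1:**
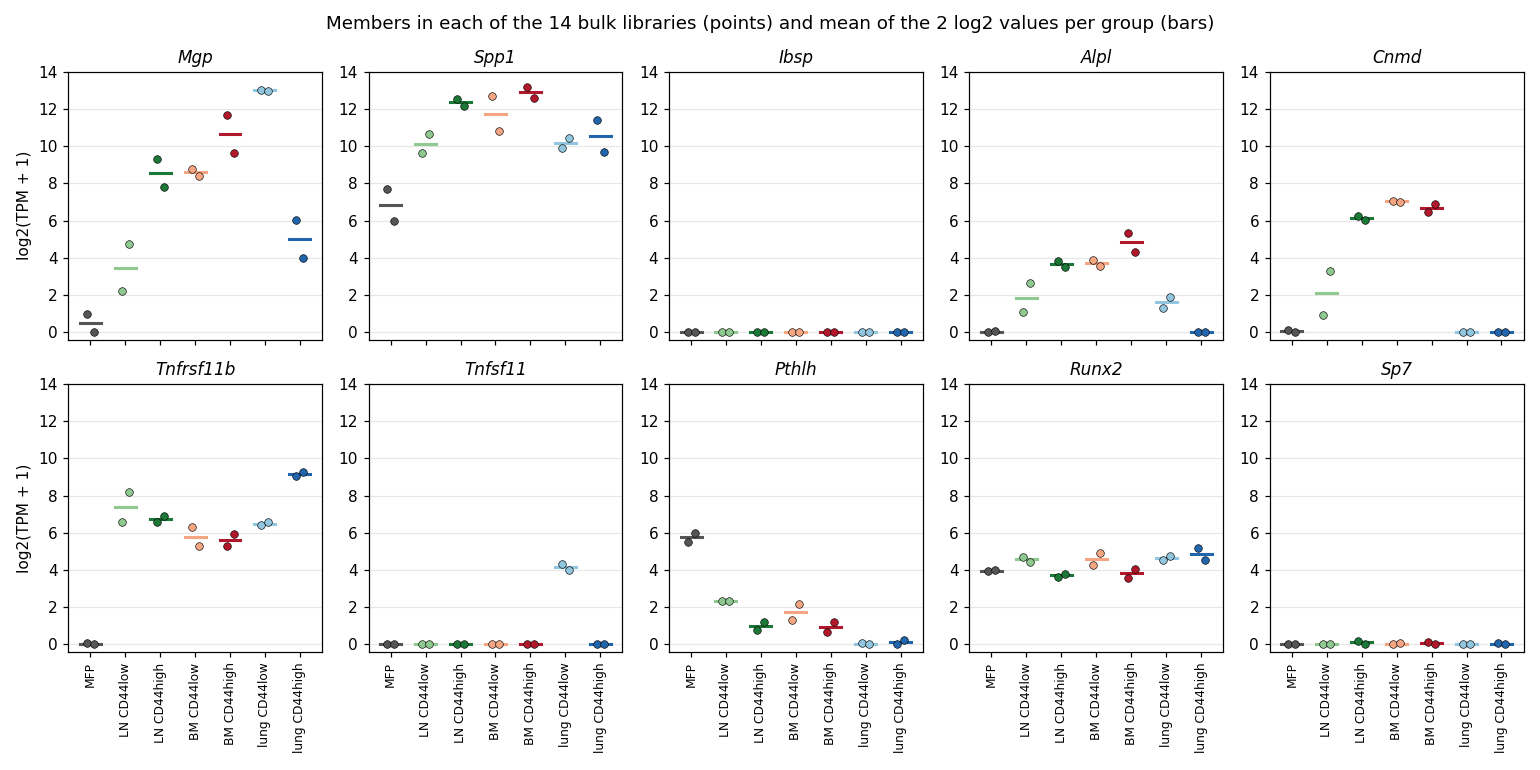
Each panel plots 1 member as log2(TPM + 1) on the vertical axis against the 7 bulk groups, with a point for each of the 14 libraries and a bar for the mean of the 2 log2 values. Tnfsf11 stands above 0 only in lung CD44low, Pthlh is highest in MFP, and Ibsp lies at 0 in all libraries.

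Spp1 was abundant in all organ-derived lines, with every one of the 12 organ-derived libraries above both MFP libraries. MFP held 207 and 62.3 TPM. In BM, CD44high cells had 9361 and 6233 TPM and CD44low cells 6639 and 1793 TPM. LN CD44high cells had 5930 and 4641 TPM, above the 793 and 1595 TPM of LN CD44low. The lung lines overlapped with LN CD44low, at 973 and 1415 TPM in CD44low and 2768 and 817 TPM in CD44high. Group means followed the order BM CD44high, LN CD44high, BM CD44low, lung CD44high, LN CD44low, lung CD44low and MFP. From LN CD44high down to lung CD44low each group overlapped with the next in this order, while both LN CD44high libraries were above all lung and LN CD44low libraries. Differences from MFP ran from 3.29 ± 0.78 in LN CD44low to 6.06 ± 0.78 in BM CD44high.

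The remaining genes of the chromosome 5 cluster did not share the level of Spp1. The cluster runs over 270 kb in the order Dspp, Dmp1, Ibsp, Mepe and Spp1, all on the plus strand. Ibsp (chr5:104299171-104311469) was listed at 0 in all 14 libraries, as were Dspp and Mepe, which code for proteins of dentin and osteocytes. Dmp1, another dentin and osteocyte matrix protein, was the exception at a low level. It was highest in BM, at 7.66 and 1.47 TPM in CD44high and 4.25 and 1.82 TPM in CD44low, with 2.82 and 0.38 TPM in LN CD44high and at most 0.12 TPM elsewhere. TPM is scaled by transcript length, so these levels can be set beside each other.

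Alpl followed a BM and LN pattern at a far lower level. BM CD44high had 39.56 and 19.14 TPM, above BM CD44low at 13.96 and 10.92 TPM. LN CD44high, at 13.10 and 10.32 TPM, overlapped with BM CD44low and lay above LN CD44low, at 1.11 and 5.21 TPM. In lung CD44low the values were 1.51 and 2.70 TPM, and in lung CD44high the gene was listed at 0 in both libraries. MFP held 0 and 0.04 TPM. As for Mgp, CD44high cells were above CD44low cells in LN and BM, and below them in lung, in every library.

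Cnmd was found in BM and LN and was listed at 0 in the lung lines. BM CD44low held 132.52 and 128.13 TPM and BM CD44high 86.39 and 116.97 TPM, so BM CD44low was slightly higher without overlap. LN CD44high had 75.77 and 64.90 TPM, whereas LN CD44low had 0.91 and 8.66 TPM. All 4 lung libraries were listed at 0, and MFP at 0.10 and 0 TPM. The LN difference between CD44high and CD44low was 4.05 ± 0.58 on the log2(TPM + 1) scale, against -0.37 ± 0.58 in BM (-0.09 under median-ratio scaling). Col2a1, the main cartilage collagen, was at 223 to 300 TPM in BM and LN CD44high, 49.7 and 60.4 TPM in LN CD44low and at most 0.38 TPM in MFP and lung. Acan, which codes for the defining cartilage proteoglycan aggrecan, did not exceed 0.08 TPM in any library. Further chondrocyte markers were also low, with Col10a1, Matn3 and Hapln1 at most at 0.53, 0.18 and 1.27 TPM. Of the 6 markers in that list, at most 2 had at least 1 TPM in both libraries of a group. Over the 14 libraries, the genes nearest to Cnmd by Pearson's r were Ckmt1 (0.991), Col9a1 (0.988), which codes for another cartilage collagen, and Pglyrp1 (0.986), out of 10448 candidates. The libraries share their culture and their preparation, and such values describe likeness only.

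Tnfrsf11b, the RANKL decoy, was near 0 in MFP and present in each organ-derived library. MFP held 0.04 and 0 TPM. Lung CD44high had 531 and 615 TPM, above every other library, and lung CD44low had 83.40 and 95.07 TPM. In LN the values were 96.17 and 295 TPM for CD44low and 95.20 and 119 TPM for CD44high, which overlapped. BM was lowest of the organs, at 78.24 and 37.91 TPM for CD44low and 37.90 and 59.91 TPM for CD44high. All 4 BM libraries were below all 4 LN libraries, by 1.37 ± 0.34 on the log2(TPM + 1) scale as a mean over both CD44 states (a difference of -1.37). The BM lines were thus those with the least osteoprotegerin transcript outside MFP.

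Tnfsf11, which codes for RANKL, appeared in 1 group. Lung CD44low held 18.90 and 14.67 TPM, and the other 12 libraries were listed at 0, BM included. No fold is given against groups listed at 0. In the same 2 libraries Tnfrsf11b exceeded Tnfsf11 by 4.41 and 6.48 times in TPM. The nearest genes over the 14 libraries were 3110039M20Rik, Efemp1 and Lum, the latter a fibroblast marker, with r from 0.99987 to 0.99999. Any gene that is high in lung CD44low and near 0 in the other libraries gives such a value.

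Pthlh had its highest level in MFP, above all organ-derived libraries. There it was measured at 44.42 and 63.27 TPM. LN CD44low had 4.10 and 3.98 TPM, BM CD44low 1.48 and 3.53 TPM, LN CD44high 0.70 and 1.27 TPM, and BM CD44high 0.59 and 1.33 TPM. In lung, values were 0.05 and 0 TPM for CD44low and 0 and 0.19 TPM for CD44high. CD44low cells were above CD44high cells in LN and in BM without overlap, the reverse of Mgp and Alpl in the same organs. The difference from MFP lay between -3.42 ± 0.35 in LN CD44low and -5.72 ± 0.35 in lung CD44low.

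**Figure D2:**
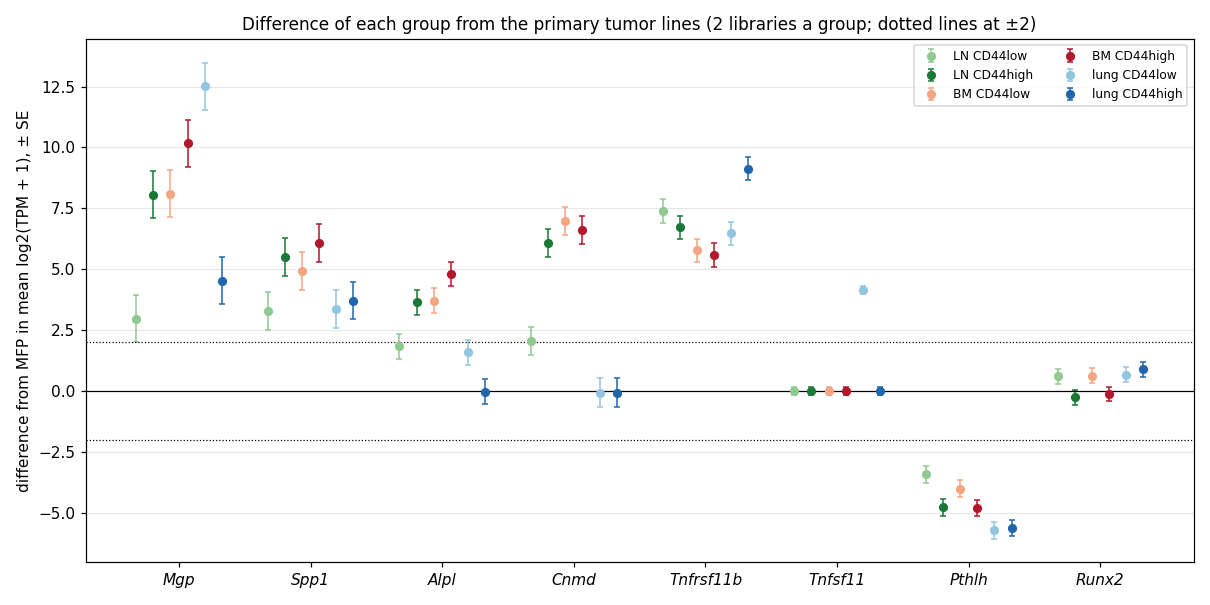
The vertical axis gives the difference of each organ-derived group from MFP in mean log2(TPM + 1), with bars for the SE of the fit and 2 libraries per group, for the 8 members that passed the filter. Mgp spreads from 2.97 in LN CD44low to 12.51 in lung CD44low, whereas Runx2 stays between -0.26 and 0.88, with negative values that turn positive under median-ratio scaling.

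Of the osteoblast transcription factors, Runx2 was expressed everywhere and Sp7 nowhere above 0.15 TPM. Runx2 ranged from 11.04 to 34.93 TPM over all 14 libraries. In LN it was lower in CD44high (11.28 and 12.81 TPM) than in CD44low (24.93 and 20.58 TPM). The same held in BM, with 11.04 and 15.87 TPM in CD44high and 18.32 and 28.97 TPM in CD44low. Lung CD44high (34.93 and 22.09 TPM) overlapped with lung CD44low (22.23 and 25.45 TPM), and MFP held 14.39 and 14.88 TPM. The differences from MFP of -0.13 in BM CD44high and -0.26 in LN CD44high became 0.40 and 0.24 under median-ratio scaling, so their direction depends on the scaling. Sp7 was above 0 in 4 libraries and reached 0.15 TPM in 1 LN CD44high library.

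Genes nearest to the remaining members by Pearson's r over the 14 libraries are listed for likeness alone. They were Lbp (0.945), Fah and Ccl9 for Mgp, Enpp3 (0.971), G0s2 and Egln3 for Alpl, and Tgfb3 (0.955), Osr1 and Palmd for Tnfrsf11b. For Pthlh they were Capsl (0.975), Wincr1 and Sema4f. Values were lower for Runx2, with Ep300 (0.905), Ap1m1 and Enc1, and for Spp1, with the gene model Gm10039 (0.918), Fbxo44 and Cp.

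Read as counts of members, the description is as follows, with a member counted where limma gave a log2 difference beyond 2 in size together with a p under 0.05 after Benjamini-Hochberg adjustment across all 15348 genes. Since the members were chosen from these contrasts, nothing is read from the counts. Tnfsf11 passed the filter on low values only through lung CD44low, so its place in any count that involves lung CD44low was fixed by the filter. Against MFP, 6 of the 8 fitted members passed in BM CD44low, where 7.16% of all genes did, 6 in BM CD44high (7.67% of all genes) and 6 in LN CD44high (6.12%). In each of these 3 groups Mgp, Spp1, Alpl, Tnfrsf11b and Cnmd were higher and Pthlh lower. In LN CD44low 4 passed (4.79%), namely Spp1, Tnfrsf11b and Cnmd, which were higher, and Pthlh. In lung CD44low 5 passed (18.8%), with Mgp, Spp1, Tnfrsf11b and Tnfsf11 higher and Pthlh lower. Spp1 in lung CD44low did not pass without the second lung CD44low library or the second MFP library, and Spp1 in LN CD44low did not pass without the second LN CD44low or the second MFP library. In lung CD44high 4 passed (13.5%), with Mgp, Spp1 and Tnfrsf11b higher and Pthlh lower, and Mgp did not pass without the first lung CD44high library. For LN CD44low the Cnmd difference of 2.03 ± 0.58 was just past the limit, the 2 values of 0.91 and 8.66 TPM differed widely, and Cnmd no longer passed in 11 of 14 fits that left out 1 library. The 6 comparisons share the 2 MFP libraries.

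Between CD44 states, no member passed in BM (0.104% of all genes did), Cnmd passed in LN (0.208%), and 3 passed in lung (11.3%), where Tnfrsf11b was higher and Mgp and Tnfsf11 lower in CD44high. Cnmd in LN did not pass in 6 of the 14 fits that left out 1 library, or without the 4 lung libraries. For BM against LN, Mgp and Cnmd passed (0.397% of all genes), although Mgp libraries overlapped. Mgp passed in 6 and Cnmd in 13 of the 14 fits that left out 1 library, Mgp also failed with a pseudocount of 0.1 or no filter, and neither passed without the 4 lung libraries. For lung against LN and BM, 3 members passed (12.7%): Tnfsf11 was higher, and Alpl and Cnmd were lower. Tnfsf11 did not pass without the first lung CD44low library. The lung mean mixes unlike groups. Mgp differed by 1.19 ± 0.59 with both lung groups and by -2.80 ± 0.84 when lung CD44high alone stood for lung. Tnfrsf11b moved from 1.44 ± 0.30 to 2.77 ± 0.41, and Tnfsf11 was listed at 0 in all remaining libraries.

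The pathway around the members was described with 63 further genes in 7 lists, of which 45 passed the filter. These genes were tested one by one, with limma and adjustment over all 15348 genes. Of the named genes of these lists, Col1a2, Sema3a and Gli2 reached 1 TPM only in lung CD44low, and Il1a only in MFP. They passed the filter on low values through those groups alone. Their place in counts that involve those groups was therefore fixed by the filter, and no p-value is given for them. A total of 28 genes were called in at least 1 of the 11 comparisons, as were 31.9% of all genes. Against MFP, 9 of 45 were called in BM CD44low (7.16% of all genes), 9 in BM CD44high (7.67%), 5 in LN CD44low (4.79%), 6 in LN CD44high (6.12%), 19 in lung CD44low (18.8%) and 8 in lung CD44high (13.5%). Without the 4 lung libraries, Dmp1 (2.21, adjusted p = 0.0645) and Sox6 (2.39, adjusted p = 0.0774) were no longer called by limma in BM CD44high, nor Nt5e in LN CD44low (2.06, adjusted p = 0.108). The median difference of the 45 genes was 1.02 in lung CD44low, where the median of all genes was 0, and between -0.12 and 0.54 in the other groups. Median-ratio scaling changed the split of higher to lower calls from 6 and 3 to 7 and 1 in BM CD44high, from 4 and 2 to 4 and 1 in LN CD44high and from 4 and 4 to 7 and 4 in lung CD44high. The lists were also chosen with results of these libraries known.

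Among other bone matrix proteins, 8 of 12 genes were tested and 7 were called against MFP in at least 1 group, as were 28.7% of all genes. Sparc (osteonectin), a collagen-binding matrix protein, rose in all 6 groups. It went from 1.39 and 0.42 TPM in MFP to 1977 and 2242 TPM in lung CD44low, a log2 difference of 10.16 ± 0.38 (adjusted p = 2.31e-08, limma), and was at 427 to 1126 TPM in the other organ-derived libraries. Ogn, a small leucine-rich proteoglycan of bone and tendon, reached 160.25 and 148.39 TPM in lung CD44low against 0.15 and 0 TPM in MFP (7.18 ± 0.33, limma adjusted p = 9.97e-08). It was also higher in BM than in LN by 2.16 ± 0.23 (limma adjusted p = 0.00149), with all 4 BM libraries (7.68 to 17.4 TPM) above all 4 LN libraries (0.55 to 3.03 TPM). That call was lost without the second BM CD44high library, where the difference was 1.98.

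The fibrillar collagens of bone stood high in lung CD44low alone among the 7 groups. Col1a1 was at 83.27 and 257 TPM there and at most 1.98 TPM in the other 12 libraries. It fell by 7.13 on the log2 scale from lung CD44low to CD44high (SE 0.54, limma adjusted p = 5.42e-06). Col1a2, at 47.80 and 77.84 TPM in lung CD44low, was listed at 0 in both lung CD44high libraries. Only lung CD44low carried Col1a2 past the filter on low values, so no p-value is given for it. Both genes are also in the fibroblast marker list given above. Omd (osteomodulin), which binds bone collagen, was at 31.28 and 26.63 TPM in lung CD44low and 3.87 and 3.23 TPM in lung CD44high, and higher in lung than in LN and BM by 2.76 ± 0.19 (limma adjusted p = 1.24e-06). With lung CD44high alone in place of both lung groups, the Omd difference was 1.41 and was not called.

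Of the mineralization enzymes and transporters, 6 of 7 were tested. Enpp1, which produces the pyrophosphate that Alpl splits, was at 0.33 and 0.15 TPM in MFP and at 44.06 to 116 TPM in the 4 BM libraries. The rise in BM CD44low was 5.92 ± 0.38 (limma adjusted p = 5.73e-06), and BM exceeded LN by 2.55 ± 0.27 (limma adjusted p = 0.00143). Like Alpl, Enpp1 was listed at 0 in both lung CD44high libraries and was present in lung CD44low, at 30.16 and 26.57 TPM. Phospho1, a phosphatase that starts mineral formation inside matrix vesicles, rose in both lung groups, by 3.45 ± 0.54 in CD44low (limma adjusted p = 0.000622). Slc20a1, a phosphate importer, fell by 4.08 in lung CD44low (SE 0.40, limma adjusted p = 2.30e-05), from 145 and 111 TPM in MFP to 4.90 and 8.69 TPM.

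In the vitamin K cycle, which provides active Mgp, 2 of 3 genes were higher in lung than in LN and BM, where 12.7% of all genes were called in either direction. Vkorc1, which recycles vitamin K, stood at 288 to 342 TPM in the 4 lung libraries and between 29.33 and 51.51 TPM in those of LN and BM (2.96 ± 0.13, limma adjusted p = 7.16e-08). Ggcx, the carboxylase itself, was higher by 2.05 ± 0.17 (limma adjusted p = 5.53e-06). The Ggcx value lay near the limit of 2 and did not pass after median-ratio scaling (1.79), without either of 2 lung libraries (1.95 and 1.90) or with lung CD44high alone (1.57). No gene of this list of 3 was called against MFP or between CD44 states. Lung CD44high, with Mgp at 63.76 and 15.13 TPM, had Vkorc1 at 321 and 342 TPM, so Vkorc1 and Mgp did not move together between the lung groups.

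Of the transcription factors of bone and cartilage, 3 of 11 were called against MFP in at least 1 group, a share near the 28.7% of all genes. Sox5 and Sox6, partners of Sox9 in cartilage, rose in both BM groups and in LN CD44high, although Sox6 in BM CD44high was not called without the 4 lung libraries. Sox5 was listed at 0 in both MFP libraries and at 9.56 to 17.1 TPM in all LN and BM libraries. It fell to 0.33 to 2.03 TPM in lung, a difference of -2.84 ± 0.25 from LN and BM (limma adjusted p = 8.03e-06). Sox6 exceeded MFP by 3.22 ± 0.68 in BM CD44low (limma adjusted p = 0.00763). The homeobox genes Msx1 and Msx2 went opposite ways in lung. Msx1 was lower by 2.30 in CD44high than CD44low (a difference of -2.30 ± 0.49, limma adjusted p = 0.00636), and Msx2 was higher by 2.44 ± 0.29 (limma adjusted p = 0.000145). Sox9 was above 57 TPM in all 14 libraries and was not called in any comparison.

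Of the other osteoclast regulators, 5 of 8 were called against MFP in at least 1 group, beside 28.7% of all genes. Csf1, which osteoclast precursors need beside RANKL, was at 550 and 862 TPM in lung CD44low and 45.29 and 99.61 TPM in MFP (3.34 ± 0.64, limma adjusted p = 0.00208). Il34, the other ligand of the Csf1 receptor, went the opposite way. It was higher by 2.20 ± 0.30 in lung CD44high than in CD44low (limma adjusted p = 0.000369), where Csf1 was lower by 2.80 (a difference of -2.80 ± 0.64, limma adjusted p = 0.00856). Sema3a, which restrains osteoclast formation, was at 27.92 and 39.33 TPM in lung CD44low and at most 0.51 TPM elsewhere (5.04 ± 0.20 against MFP). Only lung CD44low carried Sema3a past the filter on low values, so no p-value is given for it. Il1a, an inflammatory cytokine that promotes resorption, was found in MFP at 28.47 and 13.86 TPM and at most 0.20 TPM elsewhere. Il1a was lower in all 6 groups, but only MFP carried it past the filter on low values, so these calls were fixed by the filter. The CD44 calls of Csf1 and Il34 were each lost in 2 of 14 fits that left out 1 lung library.

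In the PTHrP and hedgehog axis, 3 of 7 genes were tested. Gli2, a hedgehog transcription factor linked to Pthlh in bone metastasis, was at 9.68 and 8.59 TPM in lung CD44low and at most 0.18 TPM elsewhere. It was above MFP by 3.11 ± 0.14, while Pthlh in the same libraries was at 0.05 and 0 TPM. Only lung CD44low carried Gli2 past the filter on low values, so no p-value is given for it. Gnas, the stimulatory G protein subunit behind the PTHrP receptor, rose by 2.60 ± 0.60 (limma adjusted p = 0.00562). Its 613 TPM in the second BM CD44low library, against 92.19 to 145 TPM in the other LN, BM and MFP libraries, set that library apart.

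Receptors of osteopontin were tested for 6 of 8 genes. Itgb5, an integrin subunit that pairs with Itgav, was at 185 to 668 TPM in the lung libraries and 11.58 to 56.2 TPM in the others, with lung above LN and BM by 3.81 ± 0.33 (limma adjusted p = 6.50e-06). Cd44, itself a receptor for osteopontin and the marker of the sort, was highest in MFP at 400 and 210 TPM, and fell by 4.07 in lung CD44low (SE 0.44, limma adjusted p = 5.05e-05). Osteopontin and Cd44 transcripts were thus ordered oppositely between MFP and BM CD44high, where Cd44 was at 50.49 and 49.00 TPM.

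**Figure D3:**
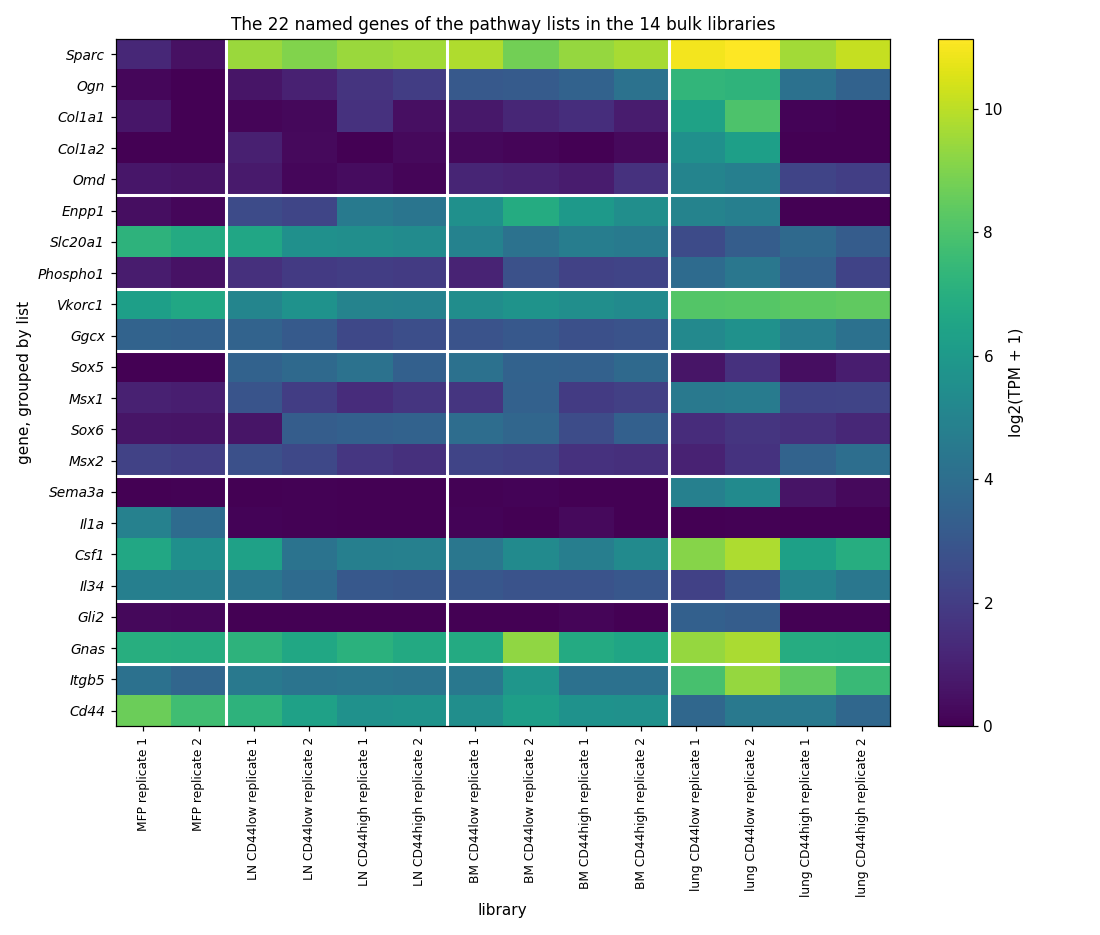
Rows are the 22 named genes of the 7 lists, separated by white lines between lists, columns are the 14 bulk libraries, and color gives log2(TPM + 1). Col1a1, Col1a2, Sema3a and Gli2 are bright in the 2 lung CD44low libraries alone, Il1a in MFP, and Enpp1 is dark in MFP and lung CD44high.

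Between CD44 states, limma called 2 of the 45 pathway genes higher and 10 lower in lung CD44high than in CD44low, where 11.3% of all genes were called. In BM and in LN it called 0, and of all genes it called 0.104% and 0.208%. At an unadjusted p under 0.05 there were 3 and 10 of the pathway genes. The share of all genes at that unadjusted limit was not counted, so nothing is read from these 2 numbers. The difference of the CD44 effect between lung and LN was called for 13 of 45 genes, where 19.5% of all genes were called, and between lung and BM for 11 (15.3%). Between BM and LN it was called for 0 genes, where 0.143% of all genes were called. At an unadjusted p under 0.05 there were 4, again with the share of all genes not counted. For BM against LN, 2 of 45 genes were called (0.397% of all genes), and for lung against LN and BM 12 (12.7%), of which 10 were higher and 2 lower (9 and 4 under median-ratio scaling). With lung CD44high alone in place of both lung groups, 6 of 45 were called, beside 1975 of all 15348 genes. The 6 were Vkorc1, Efnb2 and Itgb5, which were higher, and Enpp1, Nt5e and Sox5, which were lower.

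The single-cell libraries gave a view of 4 members per cell. Barcodes were kept above 250 detected genes and under a mitochondrial share of 10%, 1236 in lungH, 348 in lungL and 2562 in lymphH, with medians of 557, 4011 and 585 counts. No doublet caller was run, so doublets may be among the kept barcodes. Levels are counts per 10000 over all kept cells, with exact Poisson 95% intervals that cover counting error only. There is 1 library per line (a second replicate that the methods state is not analysed here), so no test was made and clones cannot be told apart from conditions. Mgp was at 25.7 (25.04 to 26.38) in lungL, 1.99 (1.80 to 2.18) in lungH and 0.0719 (0.0509 to 0.0986) in lymphH. Spp1 was at 24.7 (24.0 to 25.3) in lungL, 27.3 (26.6 to 28.0) in lungH and 4.78 (4.60 to 4.97) in lymphH. For Spp1 the order of LN and lung was the reverse of that in bulk, where both LN CD44high libraries (5930 and 4641 TPM) were above all 4 lung libraries (817 to 2768 TPM).

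Tnfrsf11b and Runx2 were low but detected in all 3 libraries. Tnfrsf11b was at 0.919 (0.797 to 1.05) in lungL, 1.96 (1.78 to 2.15) in lungH and 2.20 (2.08 to 2.33) in lymphH, with overlapping intervals for lungH and lymphH, whereas in bulk lung CD44high (531 and 615 TPM) was above LN CD44high (95.20 and 119 TPM). Runx2 was at 0.369 (0.294 to 0.458), 0.841 (0.725 to 0.971) and 0.269 (0.226 to 0.317) in the same order. Ibsp, Tnfsf11 and Sp7 had no count in any kept cell. Taken as 3 counts of the total, the limit that a count of 0 allows is 0.0136 counts per 10000 in lungH and 0.0135 in lungL. Cnmd had 9 counts, Pthlh 18 and Alpl 2 in lymphH.

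Some members that were abundant in bulk were scarce in the matching single-cell library. For LN CD44high, bulk Mgp was at 628 and 222 TPM, and lymphH held 38 counts over 2562 cells. Genes with a bulk mean from 100 to 1000 TPM in that group had a median of 1.83 counts per 10000 in lymphH, and 0.101% of the 988 such genes had no count. Cnmd, at 75.77 and 64.90 TPM in bulk, was at 0.0170 (0.00778 to 0.0323) counts per 10000, where the 4415 genes from 10 to 100 TPM had a median of 0.433. Tnfsf11 had no count in lungL against 18.90 and 14.67 TPM in bulk lung CD44low, and only 1.13% of 5420 genes from 10 to 100 TPM there had none. Lum, a fibroblast marker at 362 and 217 TPM in the same bulk group, also had no count in lungL. The paper chose its single-cell samples from the lines profiled in bulk. Which replicate clone each library came from is not given in the sources used here. Bulk and 3′ single-cell values were not tested against each other.

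Within a library, cells differed in depth, so shares were compared after thinning each cell to 1000 counts. This kept 222 cells in lungH, 238 in lungL and 306 in lymphH, and left out 1014, 110 and 2256. Mgp was found in 53.8% (47.2 to 60.2) of thinned lungL cells, 13.5% (9.31 to 18.7) of lungH cells and 0.654% (0.0793 to 2.34) of lymphH cells. Without thinning, the shares were 74.1%, 12.1% and 0.859%. Spp1 was found in 69.7% (63.5 to 75.5), 77.9% (71.9 to 83.2) and 37.9% (32.5 to 43.6) of thinned cells, and in 76.4%, 55.1% and 21.2% of unthinned cells, in the order lungL, lungH, lymphH. At a depth of 500 counts the Spp1 shares were 50.6%, 49.5% and 13.3%, over 314, 948 and 1903 cells. The intervals of the lung lines overlapped at 1000 counts, so no order between them is read for Spp1. Tnfrsf11b was found in 5.88% (3.25 to 9.67), 10.4% (6.68 to 15.1) and 15.7% (11.8 to 20.2) of thinned cells. The intervals are exact binomial 95% intervals.

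In lungL, Mgp was concentrated in part of the cells. The 35 cells with the most Mgp held 72.3% of its counts, against 49.0% for Spp1, and thinned counts of Mgp reached 53 in a cell, with a variance 12.7 times the mean. For Spp1 the variance was 2.75 times the mean in the same cells. Of the 128 thinned lungL cells with Mgp, 74.2% also had Spp1, and of those without it 64.5% did. Barcodes that were left out held 35.2 counts of Mgp per 10000 in lungL, 1.86 in lungH and 0 in lymphH, against 25.7, 1.99 and 0.0719 in kept cells. Their Spp1 was lower than in kept cells, at 20.9, 21.9 and 2.65. The part of RNA outside cells in the shares above was not tested, and the shares are no count of expressing cells. In lungL, fibroblast markers summed to 21.4 and smooth muscle markers to 59.9 counts per 10000, and Epcam had no count. Their part in the Mgp level was not tested.

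**Figure D4:**
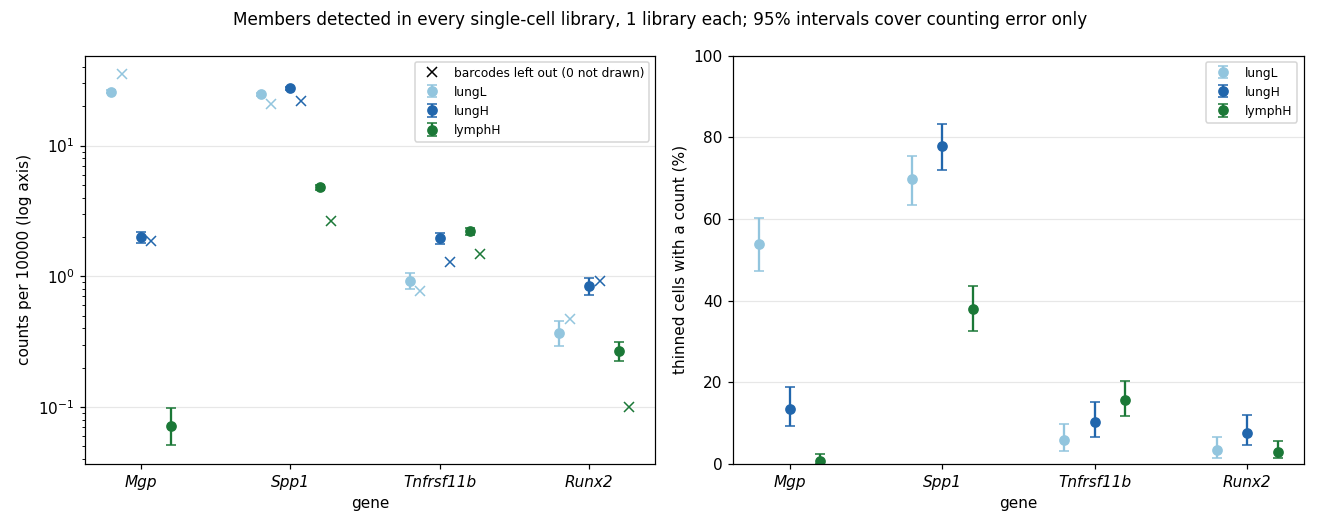
The left panel gives counts per 10000 on a log axis for the 4 members detected in every library, with exact Poisson 95% intervals and crosses for the barcodes left out. The right panel gives the share of cells with a count after thinning to 1000 counts, with exact binomial 95% intervals. Mgp falls from lungL to lungH to lymphH in both panels.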

How the data were processed

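Cell lines from MFP, LN, BM and lung were profiled by bulk and single-cell RNA-seq. Bulk cDNA came from a modified form of SMART-seq2. STAR alignment to mm10 and RSEM gave the TPM that the authors deposited. Read counts per library are not used here. The methods name 10 M reads as the lowest depth. TPM keeps no depth, and libraries had between 11508 and 13052 genes at 1 TPM or more. For single cells, the authors deposited kallisto counts per gene and barcode. The methods name GENCODE v21 as the annotation for both assays. Whether counts are molecules is not given in the sources used here. Barcodes are numbered within each library, so shared ones cannot be counted, and no 2 barcodes of different libraries held identical counts.

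The 15348 genes that reached 1 TPM in 2 or more of the 14 libraries were taken as log2(TPM + 1) and fitted as 7 group means with limma 3.58.1 (lmFit, eBayes with trend) in R 4.3.3, with 7 residual degrees of freedom. A call needs a log2 fold change beyond 2 in size and p under 0.05 after Benjamini-Hochberg adjustment, and for differences between CD44 effects the adjusted p alone. Differences of log2(TPM + 1) understate the fold change of low genes. An exact permutation test of 2 against 2 libraries cannot go below p = 0.333. The members and lists were chosen with earlier results of these data known. Named genes were all members, the 3 called genes of each list with the largest change and no overlap of libraries in each family of comparisons, and the 3 genes nearest to a member. Gene coordinates are from GENCODE vM21, which matched all 55450 identifiers, and promoter sequences from RefSeq (GRCm38.p6). Tables were handled in Python 3.11.15. Dmp1, Col2a1, Acan, Col10a1, Matn3, Hapln1, Sox9, Lum, Efnb2 and Nt5e were named after their values were seen. Alternatives were a pseudocount of 0.1, no filter, a filter of 5 TPM, median-ratio scaling, a replicate block and each library left out, and for single cells other limits on barcodes and a thinning depth of 500 counts. The fit was also tested on simulated data.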

Additional observations from a re-analysis of the deposited data

Results flagged for a closer look

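Lung was called different from LN in the CD44 effect for 10 named pathway genes, and from BM for all of these but Gnas. The interaction contrast of limma was used, with p adjusted over all genes. Col1a2, Enpp1 and Gli2 were listed at 0 in lung CD44high, and Gli2 also in LN and BM CD44low, so their values depend on the pseudocount. Col1a1, Col1a2, Sema3a and Gli2 were at most 1.98 TPM in LN and BM, so their values mostly restate the lung difference. Col1a2, Sema3a and Gli2 also passed the filter on low values only through lung CD44low, so no p-value is given for them. Values are the lung difference (CD44high minus CD44low, log2) minus that of LN or BM. Against LN, limma gave -7.95 for Col1a1 (adjusted p = 5.47e-05), -2.45 for Omd (0.00316), -4.46 for Ogn (9.80e-05) and -6.91 for Enpp1 (1.36e-05). It gave 3.34 for Msx2 (0.000288), 3.30 for Il34 (0.000396) and -2.70 for Gnas (0.0494). The values were -5.45 for Col1a2, -4.63 for Sema3a and -3.34 for Gli2. Against BM, limma gave -7.33 for Col1a1 (adjusted p = 9.99e-05), -2.83 for Omd (0.00135), -4.15 for Ogn (0.000169) and -4.41 for Enpp1 (0.000312). It gave 3.11 for Msx2 (0.000494) and 2.21 for Il34 (0.00539). The values were -5.89 for Col1a2, -4.60 for Sema3a and -3.44 for Gli2.

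Mgp, Alpl and Cnmd moved one way in one organ and the opposite way in another, without overlap of libraries. The difference between organs was not tested for them. The share of all genes that did so was not counted, so the values are a description only. The CD44high minus CD44low difference of Mgp was -7.99 in lung, 5.09 in LN and 2.08 in BM. That of Alpl was -1.61 in lung, 1.80 in LN and 1.10 in BM, on the log2(TPM + 1) scale and with lung CD44high listed at 0. For Cnmd it was 4.05 in LN and -0.37 in BM, where the SE was 0.58 and median-ratio scaling gave -0.09.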

How the results depend on the processing

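Only 2 clones stand behind each group, and the depth of each bulk library is unknown. Median-ratio scaling moved the median of all genes by up to 0.37 (BM CD44high against MFP) and by -0.21 for lung against LN and BM, and no called member changed sign under any of the 5 other settings or 14 fits without 1 library. Under a pseudocount of 0.1, calls of pathway genes against MFP went from 5 to 9 in LN CD44low, from 6 to 10 in LN CD44high and from 8 to 13 in lung CD44high. Members past the thresholds went from 1 to 0 for CD44 in LN and from 2 to 1 for BM against LN, where no filter on low values also gave 1. Median-ratio scaling gave 1 pathway gene for CD44 in LN in place of 0. After the data were seen, fits without lung libraries were added. Without lung CD44low, 6 pathway genes in place of 12 were called for lung against LN and BM, beside 1975 of all 15348 genes. Sema3a (0.39) was no longer among them. Tnfsf11 was then at 0 throughout, and Mgp turned from 1.19 to -2.80. Without the 4 lung libraries 0 members passed for CD44 in LN and 0 for BM against LN, beside 12 and 38 of all 15348 genes.

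Leaving out 1 library gave 0 to 2 pathway genes for CD44 in BM (2 without the first BM CD44low library), 0 to 1 in LN, 1 to 2 for BM against LN and 0 to 4 for the BM minus LN difference of CD44 effects. Members passing ranged from 2 to 6 for LN CD44low against MFP, 0 to 3 for CD44 in LN and 0 to 2 for BM against LN. The cause of these changes was not tested. Whether same-numbered libraries came from the same mouse is not given in the sources used here. Their deviations correlated at -0.19 to 0.17, which cannot settle it, because clones of the same mouse may differ. With the replicate block, the LN CD44low comparison with MFP had 4 pathway genes in place of 5 and 3 members in place of 4. In single cells, Mgp in lungL stayed between 25.4 and 28.1 counts per 10000 under the other limits on barcodes.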
